A study of Mus musculus with 40 samples.

Results

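The genes described here are 37 enzymes of the urea cycle and of amino acid catabolism in the liver. They were chosen by gene symbol, with earlier results of these data known, from 20078 symbols listed across the 4 deposited expression tables. The study measured polyadenylated RNA in liver and in gonadal fat (gonadal white adipose tissue, gWAT) by 3′-tag sequencing, in which reads come from the 3′ end of a transcript. The animals were sons and daughters, of C57BL/6J genotype, whose fathers had received nicotine or a control treatment, named DMSO in the column headers. The labels give 8 groups of 5 samples by tissue, sex and paternal exposure. All samples were handled here as 1 batch, and the sample titles name none. The 39 library columns analysed included 4 control columns in male gWAT that could not be matched one by one to its 5 labelled controls. Those are called control columns 1 to 4 here. The sources used here do not give the dose, the route, the age of the offspring, or the father and litter of each sample, and a p-value therefore reflects sample-to-sample spread alone, part of which may be technical.

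Urea synthesis takes place in hepatocytes, mainly in those near the portal vein. Ammonia freed from amino acids enters as carbamoyl phosphate and leaves as urea after passing through citrulline, argininosuccinate and arginine. The enzymes that strip nitrogen from amino acids and break down their carbon skeletons are likewise concentrated in the liver, and many are known to respond to fasting, glucagon and glucocorticoids. White adipose tissue carries little of this pathway, apart from genes such as Cdo1 and Csad, which turn cysteine toward taurine.

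The libraries held 1543208 to 2239073 reads assigned to genes. All 37 genes were listed in both liver tables, 32 in the female gWAT table and 36 in the male gWAT table. A gene was tested where its mean was 10 or more normalized counts, which left 36 members in the female and 37 in the male liver table, and 12 members in the female and 20 in the male gWAT table. Nags, Gls2, Kynu, Sds and Uroc1 were not listed in female gWAT, and Nags was not listed in male gWAT. Values are normalized counts, a log2 change is the nicotine mean minus the control mean of log2(normalized count + 1), a scale that shrinks changes at low counts, and adjusted p-values are from limma over all genes tested in a table, with a threshold of 0.05. Because tissue was measured in bulk, fewer cells of a type and less RNA per cell cannot be told apart.

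Some libraries stood apart. The summed counts of 7 hepatocyte markers lay between 107273 and 132031 in female liver, and those of 6 adipocyte markers between 33918 and 111000 in female gWAT and between 27014 and 99872 in male gWAT, so the tissue labels had their defining transcripts. In male liver, nicotine 1 and nicotine 5 had the lowest hepatocyte sums in normalized counts (82980 and 85558, against 101577 or more elsewhere). Their reads had also been divided by the largest values, 1.36 and 1.22, so this ranking is tied to that scale. Those same libraries had the lowest sums of male-biased liver genes, at 190 and 391 against at least 4465, and the highest sums of female-biased liver genes, at 414 and 287 against at most 82.4. They also had the highest Kupffer cell sums, at 604 and 549 against at most 407, and stellate cell sums of 1337 and 1184, against at most 935 in controls and 1298 in nicotine 4. Pancreatic acinar transcripts summed to 8753 in male liver nicotine 2, and skeletal muscle transcripts to 6176 in male liver nicotine 4. In female liver, muscle transcripts summed to 319 in nicotine 5 and 179 in control 4, against at most 22.6 elsewhere. Ovary and oviduct transcripts summed to 160 in female liver nicotine 5, against at most 11.7 in the other female livers. They summed to 117 in male liver control 2, against at most 7.37 in the other male livers. Sinusoidal endothelial transcripts summed to 263 to 320 in the female liver controls and to 185 to 235 in the nicotine libraries, without overlap, and the part of this difference in the member values was not tested.

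The first comparison asked how the urea cycle and amino acid enzymes differed in the livers of daughters with paternal exposure. Tat, the tyrosine aminotransferase that starts tyrosine breakdown, rose 1.81-fold. It was the 1 of 36 tested members that passed. Of all 9173 tested genes, 3.28% passed in either direction and 1.61% passed upward. The control libraries measured 637, 451, 617, 441 and 386 normalized counts of Tat, and the nicotine libraries 924, 514, 1313, 1029 and 809.9. Of the nicotine libraries, 4 lay above every control, and nicotine 2 lay among the controls. The means were 506 ± 113 and 918 ± 293 (SD, n = 5 each), a log2 change of 0.82 (SE 0.18, limma adjusted p = 0.0161). The authors' deposited table gives Tat a log2 fold change of 0.63 and an adjusted p of 0.0292, and lists no other member below 0.05 in this tissue.

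The Tat call depended on the libraries used, and 2 of the 10 fits that each left out a library lost it. Over those 10 fits the limma adjusted p ran from 7.53e-04 to 0.0602. Leaving out control 5 gave 0.73 (adjusted p = 0.0602), leaving out nicotine 4 gave 0.76 (adjusted p = 0.0528), and leaving out both libraries with muscle transcripts, control 4 and nicotine 5, gave 0.81 (adjusted p = 0.0656). Each of these values kept the direction and lost the call.

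Tat occupies 109990437 to 109999803 of chromosome 8 (mm10, GENCODE M21, plus strand), with no other annotated gene over its last 300 bases. Since Tat was the member that passed in liver, the 250 bases before its start are shown here from RefSeq (GRCm38.p6, chr8:109990186-109990435, plus strand), 5′ to 3′, with each CCAAT on either strand in capitals.

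Tat promoter: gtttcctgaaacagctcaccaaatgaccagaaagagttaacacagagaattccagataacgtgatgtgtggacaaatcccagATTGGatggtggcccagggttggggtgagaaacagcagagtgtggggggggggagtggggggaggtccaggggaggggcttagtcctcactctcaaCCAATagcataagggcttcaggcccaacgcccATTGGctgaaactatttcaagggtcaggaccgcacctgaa

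The 3 CCAAT matches begin 168, 72 and 40 bases before the start. Promoter sequences of this length were found for 26 of the 37 members, 27 sequences in all. CCAAT occurred in 15 of the 27 (55.6%) and in 33.8% of all 32851 promoters in the RefSeq table. The glucocorticoid-type palindrome ACANNNTGT occurred in 3 member promoters (Tdo2, Hal and Bhmt), or 11.1% against 5.84% of all, and TATAAA in 4 (Tdo2, Ftcd, Hal and Hgd), or 14.8% against 12.4%. Strict forms of the cAMP element TGACGTCA, the C/EBP palindrome TTGCGCAA, the HNF1 palindrome and the HNF4 letters CAAAGTCCA occurred in 0 of the 27, against 1.55%, 0.164%, 0.00913% and 0.384% of all promoters. Both strands were searched, the motifs were counted apart from each other, and a match describes the letters only.

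The 6 urea cycle enzymes did not pass in female liver. Otc, the mitochondrial enzyme that makes citrulline, measured 704, 659, 787, 694 and 639 in controls and 728, 901, 927, 981 and 779.9 in the nicotine group. The nicotine libraries included 3 above every control, and the log2 change was 0.30 (SE 0.09, adjusted p = 0.0782). The authors' deposited table gives Otc 0.29 with an adjusted p of 0.0510. The gene occupies 10252305 to 10321024 of chromosome X (plus strand).

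Asl, the lyase that releases arginine, measured 165, 118, 137, 116 and 105 in controls and 152, 185, 190.1, 207 and 129 with nicotine. Here too 3 nicotine libraries lay above every control, with a log2 change of 0.43 (SE 0.14, adjusted p = 0.0998). Cps1, the carbamoyl phosphate synthetase that commits ammonia to the cycle, measured 4086, 3277, 4077, 2612 and 2756 in controls and 3666, 4075, 6251, 4295 and 3953 with nicotine. Nicotine 3 was far above the rest, and the log2 change was 0.40 (SE 0.14, adjusted p = 0.131). Arg1, the arginase that releases urea, averaged 3273 ± 517 and 3746 ± 436, and Ass1, which makes argininosuccinate, 649 ± 165 and 748 ± 235. Nags, which makes the activator of Cps1, averaged 46.7 ± 7.19 and 48.2 ± 17.6 (log2 change -0.02). The urea cycle list thus had 5 of 6 log2 changes above 0, a median of 0.25, and 0 members past the threshold.

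Among the other enzymes of tyrosine breakdown, Hpd, the dioxygenase after Tat, measured 677, 397, 696, 513 and 508 in controls and 670.3, 725, 893, 716 and 591 with nicotine. The groups overlapped, and the log2 change was 0.38 (SE 0.13, adjusted p = 0.131). Over the end of Hpd lie the annotated genes Gm26745 on its own strand and Psmd9 on the opposite strand, and the use of strand in counting is not given in the sources used here. Hgd and Fah, which complete the pathway to fumarate and acetoacetate, changed by 0.03 and 0.13 on the log2 scale, neither past the threshold.

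Sds, the serine dehydratase that makes pyruvate, measured 153, 122, 164, 119.8 and 98.3 in controls and 168, 126, 363, 224 and 161 with nicotine. Its mean was 1.59-fold higher, with 3 nicotine libraries above every control, and it did not pass (log2 change 0.59, SE 0.21, adjusted p = 0.131). Prodh, the first enzyme of proline breakdown, measured 86.4, 28.9, 76.7, 46.6 and 71.9 in controls and 100.3, 90.3, 143, 86.2 and 56.8 with nicotine. Its nicotine libraries included 3 above every control (log2 change 0.65, adjusted p = 0.175). Aldh4a1, the second, measured 364, 316, 441, 323 and 326 in controls and 394, 455, 432, 436 and 380.1 with nicotine. Control 3 lay among the nicotine libraries and the other 4 controls lay below all of them (log2 change 0.25, adjusted p = 0.177). Oat, which channels ornithine toward glutamate, averaged 790.0 ± 185 and 1086 ± 347 (adjusted p = 0.198). The ends of Sds, Prodh, Gls2 and Gnmt are overlapped on the opposite strand by Plbd2, Dgcr6, Spryd4 and Gm26904. Those of Aldh4a1 and Oat are overlapped on their own strand by the annotated genes Gm21969 and Fgfr2, so that their reads may be shared whatever the use of strand.

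A smaller set measured lower in the nicotine group without passing. Csad, which decarboxylates cysteine sulfinate on the way to taurine, measured 261, 369, 169, 219.7 and 287 in controls and 400.0, 103, 76.3, 124 and 184 with nicotine. Nicotine 1 was above all controls and 3 nicotine libraries were below all of them (log2 change -0.76, SE 0.30, adjusted p = 0.186). Got1, the cytosolic aspartate aminotransferase, averaged 978 ± 253 and 774 ± 207 (log2 change -0.34), Gldc, of the glycine cleavage system, 143 ± 21.3 and 117 ± 18.8 (log2 change -0.30), and Gnmt, which uses up S-adenosylmethionine, 2120.1 ± 538 and 1752 ± 629 (log2 change -0.31). Bhmt, Mat1a, Ahcy, Cth and Cbs, the other enzymes of the methionine cycle and of transsulfuration, had log2 changes from -0.04 to 0.18, and Agxt, which disposes of glyoxylate, averaged 395 ± 44.3 and 356 ± 12.3. The tryptophan enzymes Tdo2, Kmo, Kynu and Haao had a median of 0.00, and the lysine and histidine enzymes Aass, Hal, Uroc1 and Ftcd a median of 0.10, with 0 of either list past the threshold.

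Over the 36 tested members, 24 log2 changes were above 0 and 12 below, with a median of 0.14, whereas 49.3% of all genes were above 0 and their median was -0.0045. Unadjusted p-values below 0.05 were found for 11 members, or 30.6%, and for 17.6% of all tested genes. Groups overlapped for every member, while 4.73% of all genes had groups that did not overlap. Without control 4 and nicotine 5, the libraries with muscle transcripts, 26 members were above 0 and 10 below, the median was 0.14, 0 members passed, and 181 genes passed in all.

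**Figure D1:**
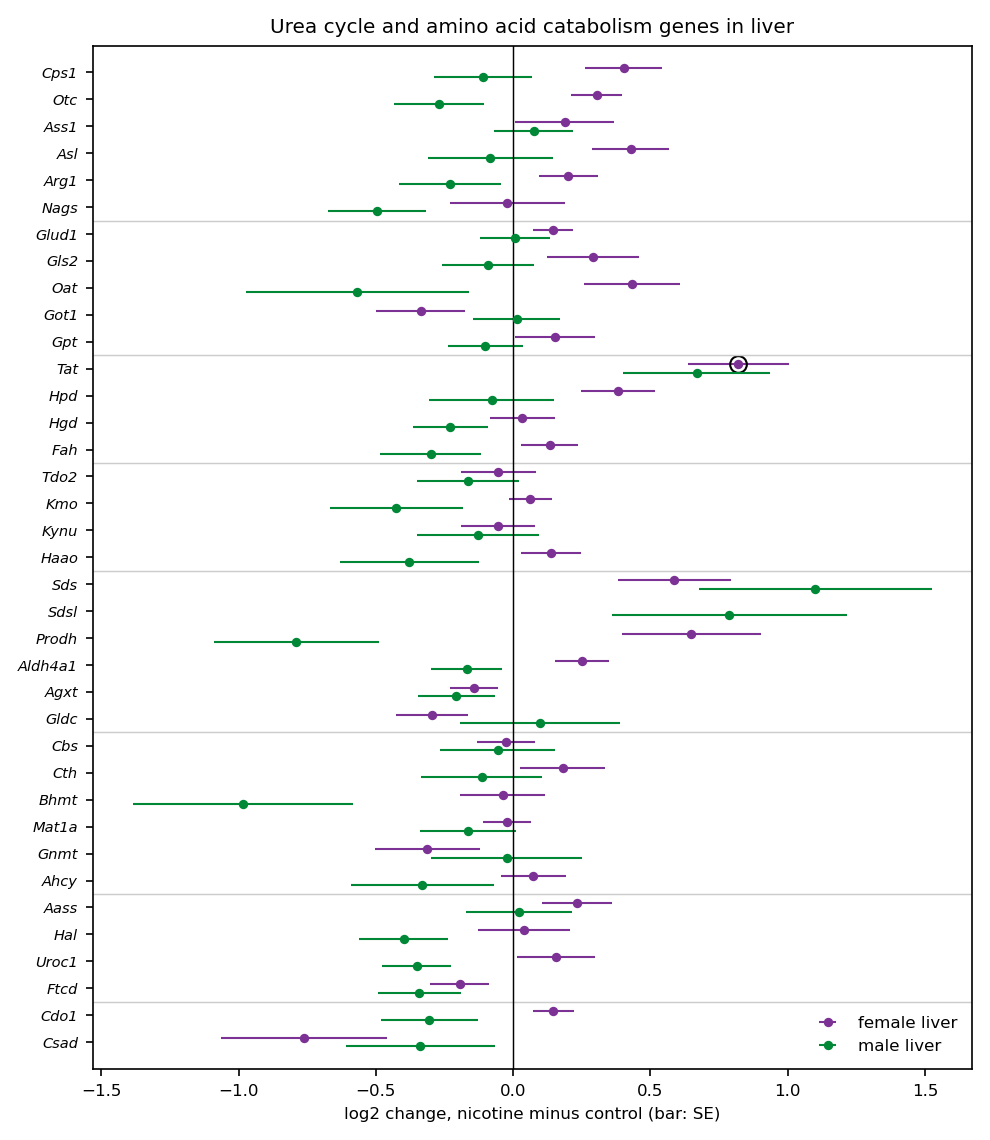
Log2 change of each tested member (nicotine minus control, from log2(normalized count + 1)) in female liver (purple) and male liver (green), with bars of 1 SE and grey lines between roles. The ringed point, Tat in female liver (0.82), is the 1 value past the threshold; 24 of 36 female values and 8 of 37 male values lie above 0.

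Other amino acid genes were read from a list of 67, of which 59 were tested in female liver. In that list 4 genes rose and 1 fell, or 8.47%, against 3.28% of all tested genes. Slc38a3, the glutamine carrier SNAT3 of hepatocytes, rose 1.45-fold (log2 change 0.53, SE 0.09, adjusted p = 0.00261), and its lowest nicotine library (721) lay above its highest control (655). Hoga1, which splits hydroxyproline-derived hydroxyoxoglutarate, rose from 228 ± 37.2 to 314 ± 28.5 (adjusted p = 0.0232), Pipox, which oxidizes pipecolate and sarcosine, rose 1.30-fold (adjusted p = 0.0374), and Aadat, the kynurenine and aminoadipate aminotransferase, rose from 67.7 ± 8.80 to 101 ± 20.9 (adjusted p = 0.0325). Ddc, the aromatic amino acid decarboxylase, fell from 166 ± 35.3 to 99.4 ± 25.8 (log2 change -0.74, adjusted p = 0.0147), with groups that did not overlap.

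Of 15 regulators of amino acid catabolism, 1 rose and 2 fell in female liver, or 20%, against the same 3.28% of all tested genes. Cebpb, a C/EBP factor induced in fasting, rose from 271 ± 30.3 to 375 ± 43.0 (adjusted p = 0.0128). Atf4, the factor of the amino acid stress response, fell from 209 ± 12.1 to 133 ± 18.3 (log2 change -0.66, adjusted p = 0.00123), and Cebpa, a factor of hepatocyte identity, fell from 298 ± 45.6 to 227 ± 15.2 (adjusted p = 0.0446). Among zonation markers outside the member list, Cyp1a2 and Lect2 rose of 9 pericentral genes (22.2%), and 0 of 7 periportal genes passed. All 9 pericentral and 5 of the 7 periportal log2 changes were above 0, against 49.3% of all genes. Without control 4 and nicotine 5, Hoga1 (adjusted p = 0.0683) and Cebpa (adjusted p = 0.125) were no longer past the threshold.

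The second comparison took the livers of sons. None of the 37 members passed, and 0.055% of the 9093 tested genes did, 5 genes in all. Uroc1, the urocanate hydratase of histidine breakdown, had the smallest p. It measured 227, 215, 229, 230.0 and 218 in controls and 155, 194, 218, 160.0 and 157 with nicotine, so that 4 nicotine libraries lay below every control (log2 change -0.35, SE 0.12, adjusted p = 0.243). Nags measured 63.3, 58.0, 55.8, 49.9 and 61.6 in controls and 28.0, 54.9, 38.7, 47.4 and 38.5 with nicotine. Again 4 nicotine libraries were below every control (log2 change -0.50, SE 0.18, adjusted p = 0.246).

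Prodh measured 74.2, 47.5, 57.6, 59.7 and 52.6 in controls and 19.1, 42.5, 54.5, 49.9 and 17.2 with nicotine. Nicotine 1 and 5 held the 2 lowest values, and the log2 change was -0.79 (SE 0.30, adjusted p = 0.270). Bhmt, which remethylates homocysteine with betaine, showed the same 2 low libraries, at 271 and 227 against 792 or more elsewhere (log2 change -0.99, SE 0.40, adjusted p = 0.297). Oat measured 229 and 197 in those libraries and 567 or more elsewhere.

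The 2 members with higher means and small p in male liver were Sds and Tat. Sds measured 78.1, 68.5, 31.9, 92.0 and 37.0 in controls and 232, 168, 197, 43.5 and 82.7 with nicotine. The mean was 2.35-fold higher, with 3 nicotine libraries above all controls, and the gene did not pass (log2 change 1.10, SE 0.43, adjusted p = 0.278). Tat measured 559, 577, 412, 522 and 438 in controls and 1352, 1066, 669, 384 and 835 with nicotine. All nicotine libraries other than nicotine 4 lay above every control, nicotine 4 lay below them all, and the log2 change was 0.67 (SE 0.27, adjusted p = 0.294). Nicotine 4 was the library with skeletal muscle transcripts. Without it the log2 change was 0.93 for Tat (adjusted p = 0.119) and 1.47 for Sds (adjusted p = 0.133), the highest of the 10 fits that each left out a library, and the lowest were 0.48 and 0.87, without nicotine 1.

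**Figure D2:**
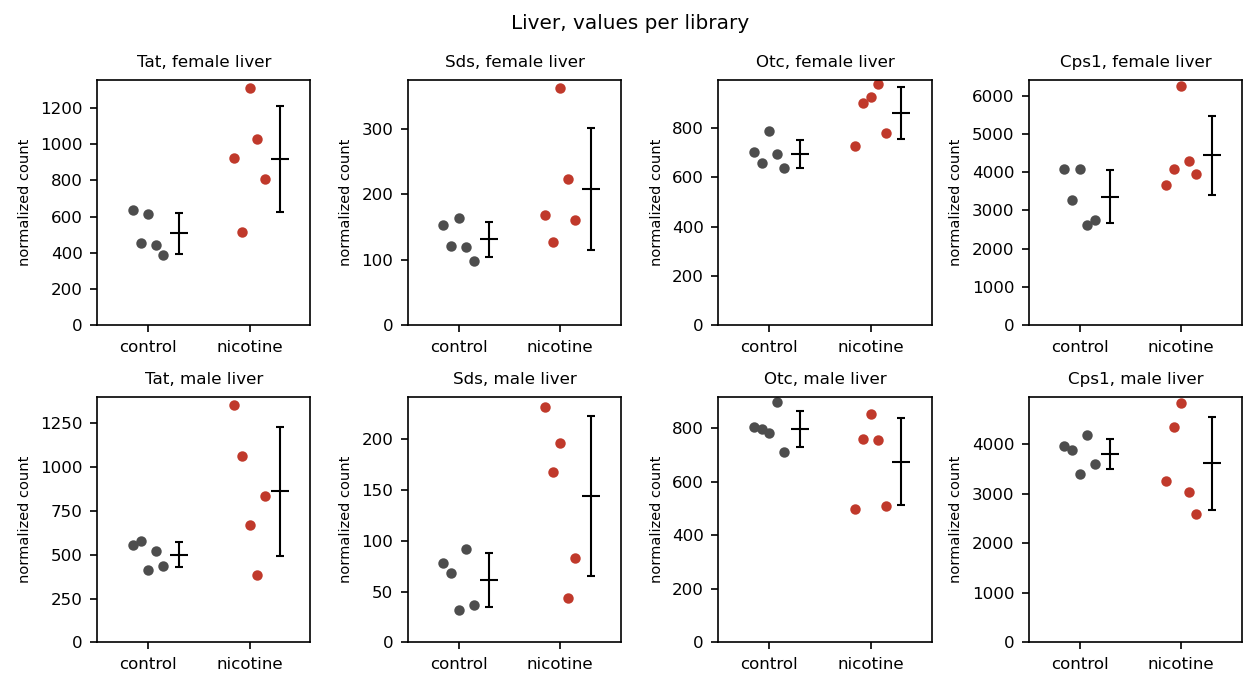
Normalized counts of Tat, Sds, Otc and Cps1 in every liver library, females in the top row and males in the bottom row, grey for control and red for nicotine, with the mean and 1 SD (n = 5 each) beside each group. Tat reached 1313 in female and 1352 in male nicotine libraries, above the highest controls of 637 and 577, while groups overlap in every panel.

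In normalized counts, most members measured lower in male liver nicotine 1 and nicotine 5 than in any other library. Those libraries held the 2 lowest values for 24 of the 37 members, whereas this held for 15.2% of all tested genes. They held the 2 highest values for 2 members, Sdsl, a serine dehydratase-like enzyme, and Gldc, whereas this held for 11.4% of all genes. Sdsl averaged 9.54 in controls and 17.0 with nicotine. It reached the minimum mean of 10 only through the nicotine group, so its high values there are not read as a result. Otc, for example, measured 806, 796, 781, 896 and 709 in controls and 499, 758, 855, 755 and 510.2 with nicotine. Ahcy, which hydrolyses S-adenosylhomocysteine, measured 338 and 363 in those libraries against 663 or more. Kmo, the kynurenine hydroxylase, measured 232 and 211 against 443 or more, and Haao, further down the kynurenine pathway, 152 and 157 against 261 or more. Tat, Sds, Csad and Ass1 instead were highest in nicotine 1, at 1352, 232, 528 and 631. These are the libraries with low hepatocyte and male-biased sums and high female-biased, Kupffer cell and stellate cell sums, in normalized counts. The part of those differences in the member values was not tested. Nicotine 1 and 5 also had the largest size factors (the values that divide the reads) in male liver. These were 1.36 and 1.22, against at most 1.13 elsewhere. Neither the counts of lowest and highest libraries nor the marker sums were repeated on another scale.

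**Figure D3:**
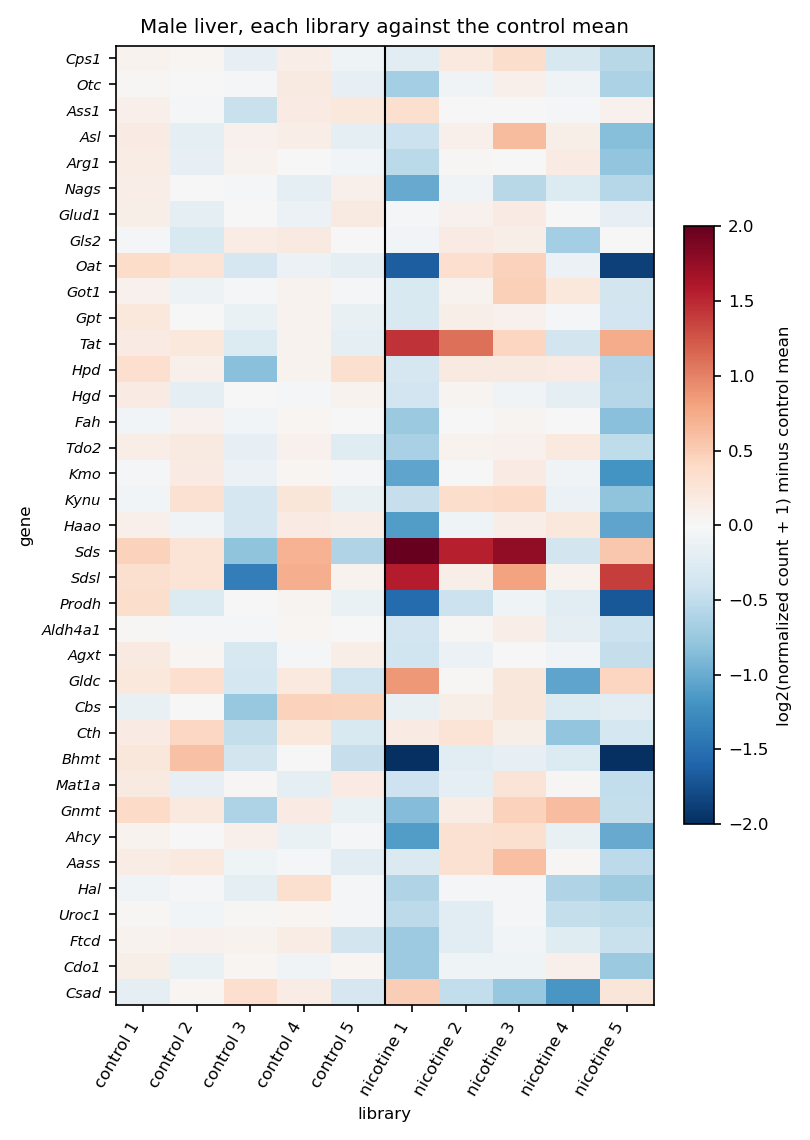
Log2(normalized count + 1) of each member in each male liver library minus the mean of the 5 controls, from blue (lower) to red (higher), with values beyond 2 drawn in the end colour. The columns of nicotine 1 and nicotine 5 are mostly blue, being the 2 lowest libraries for 24 of 37 members, while Tat, Sds and Sdsl are red in nicotine 1.

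With all libraries, 8 members had log2 changes above 0 and 29 below, with a median of -0.16, while 50% of all genes lay above 0. The 8 include Sdsl, which was tested only because of its level in the nicotine group. Without nicotine 1 and 5, 21 members were above 0 and 16 below, the median was 0.03 against 0.01 over all genes, and 0 members passed, with 6 genes passing in all (0.0671%). Prodh then had a log2 change of -0.24 (adjusted p = 0.630), Bhmt -0.22 (adjusted p = 0.668), Uroc1 -0.24 (adjusted p = 0.481) and Nags -0.30 (adjusted p = 0.515). Oat changed sign, from -0.57 to 0.22. Tat went from 0.67 to 0.39 (adjusted p = 0.536) and Sds from 1.10 to 0.98 (adjusted p = 0.377). All of these differences were thus smaller in size without the 2 libraries, and those of Sds and Tat were still above 0.

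Unadjusted p-values below 0.05 were found for 8 members in male liver, or 21.6%, and for 14.5% of all genes, and no member had groups that did not overlap, against 3.16% of all genes. Of 60 related amino acid genes tested, 0 passed, and of 15 regulators 0 passed, with 14 and 5 at an unadjusted p below 0.05. Tbx3, a pericentral transcription factor, averaged 95.2 ± 25.3 in controls and fell to 36.0 ± 7.73, with groups that did not overlap (log2 change -1.36, SE 0.20, adjusted p = 0.0249). It had -1.17 (adjusted p = 0.0575) without nicotine 1 and 5. With all libraries, all 8 pericentral genes tested had log2 changes below 0. Of 7 periportal genes, 5 were above 0 and 2 below, while 50% of all genes lay above 0.

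Whether the effect of paternal nicotine differed between sons and daughters was tested by the interaction, the male log2 change minus the female one. None of 36 members passed, against 1.56% of 8699 genes, and 6 were at an unadjusted p below 0.05 (16.7%, against 16.3% of all genes). Prodh had the smallest p. Its log2 change was 0.65 in females and -0.79 in males, a difference of -1.44 (SE 0.44, adjusted p = 0.102), which was -0.89 (adjusted p = 0.239) without male nicotine 1 and 5. The gene occupies 18060357 to 18090203 of chromosome 16 (minus strand).

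Otc had 0.30 in females and -0.27 in males, a difference of -0.58 (SE 0.19, adjusted p = 0.139), and -0.32 (adjusted p = 0.289) without those 2 libraries. Aldh4a1 measured 346, 334, 334, 352 and 344 in male controls and 261, 346, 376, 302 and 254 with nicotine, and its difference was -0.42 (SE 0.16, adjusted p = 0.198). Tat rose in females and did not pass in males, yet the difference between the sexes was -0.15 (SE 0.36, adjusted p = 0.884). Sds had a difference of 0.51 (SE 0.52, adjusted p = 0.661). The difference was below 0 for 31 of 36 members, with a median of -0.34, while 50.5% of all genes were below 0. Without male nicotine 1 and 5, it was below 0 for 24, with a median of -0.10.

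In control livers, 30 of the 37 members had overlapping levels in the sexes, in CPM (each library's recovered reads scaled to one common total), used because the tables were normalized separately. All female controls were above all male controls for 5 members, as they were for 4.92% of the 8699 genes tested in both livers. Sds averaged 66.3 ± 13.1 and 32.3 ± 13.5 CPM, a 2.05-fold difference, Gldc was 1.86-fold higher, and Glud1 (the glutamate dehydrogenase that frees ammonia), Got1 and Cdo1 were 1.21-fold, 1.39-fold and 1.31-fold higher. All male controls were above all female controls for 2 members and for 6.36% of those genes. Tdo2, the dioxygenase that opens the tryptophan ring, was 1.53-fold higher in males and Kmo 1.32-fold. These are levels in controls and were not tested.

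In gWAT most of these enzymes were scarce. Set against control gWAT of the same sex, in CPM, control liver held 401-fold more Cps1 in females and 140-fold more in males. For Tat the folds were 158 and 74.2. The gWAT means were 4.23 and 14.3 CPM for Cps1 and 1.62 and 3.56 CPM for Tat, so these folds rest on few reads. Other members were shared between the tissues. Cdo1, which oxidizes cysteine, was 1.41-fold and 1.498-fold higher in liver, Glud1 4.12-fold and 2.89-fold, Oat 2.94-fold and 3.00-fold, and Gpt, the alanine aminotransferase, 3.05-fold and 3.11-fold. The mean of Csad was lower in liver than in gWAT, at 0.439 and 0.902 times the gWAT level, and the control ranges overlapped in both sexes. In males the liver range, 155 to 262 CPM, lay within that of gWAT, 152 to 276 CPM.

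In the gWAT of daughters, Gpt rose 2.11-fold. It was the 1 of 12 tested members that passed. Of all 10532 tested genes, 25.2% passed in either direction and 12.4% passed upward. Controls measured 47.0, 37.6, 86.5, 38.5 and 45.5 normalized counts of Gpt, and nicotine libraries 42.4, 115, 159, 141 and 80.6. Nicotine 1 lay among the controls, and 3 nicotine libraries lay above every control. The means were 51.0 ± 20.3 and 108 ± 46.8 (SD, n = 5 each), a log2 change of 0.99 (SE 0.33, limma adjusted p = 0.0406). The authors' deposited table gives 0.99 with an adjusted p of 0.0159. Kupffer cell and macrophage transcripts summed to 222 to 508 in these controls and to 79.7 to 211 with nicotine, and endothelial transcripts to 139 to 212 and to 86.5 to 136, both without overlap. Their part in the member values of female gWAT was not tested. The gene occupies 76695716 to 76699686 of chromosome 15 (plus strand).

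The Gpt call was lost in 7 of 10 fits that left out a library: without control 1, 2, 4 or 5 and without nicotine 2, 3 or 4. The log2 change then ranged from 0.82 to 1.29 over all 10 fits, and the highest adjusted p was 0.103, without nicotine 4.

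Arg1, an enzyme that macrophages also carry, measured 17.6, 15.6, 13.1, 283 and 109 in female gWAT controls and 20.6, 16.9, 10.9, 10.8 and 11.3 with nicotine. Controls 4 and 5 were far above the rest, and the other 3 controls overlapped the nicotine group. The log2 change was -1.54 (SE 0.69, adjusted p = 0.117), while the authors' deposited table gives -1.67 with an adjusted p of 0.0205. Counted on recovered reads, edgeR gave -2.65 (adjusted p = 0.0317) and DESeq2 -2.66 (adjusted p = 0.0127). Controls 4 and 5 also had the highest sums of female-biased liver genes (475 and 212, against at most 27.5), of which 4 of 9 were listed. They had the highest Kupffer cell sums as well (508 in each). Ovary and oviduct transcripts summed to 361 in control 4 and 18.2 in control 5, against at most 49.3 in every library but control 4. Without control 4 the log2 change was -0.85, and without control 5 it was -1.19, neither past the threshold. The part of the other cell markers in the Arg1 values was not tested.

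Among the other members of female gWAT, Ahcy measured 17.6, 23.8, 22.7, 27.5 and 36.4 in controls and 22.9, 15.7, 10.9, 7.21 and 17.8 with nicotine. The groups overlapped, with 3 nicotine libraries below every control (log2 change -0.80, SE 0.32, adjusted p = 0.0813). Aldh4a1 measured 172, 69.6, 100.4, 54.0 and 66.3 in controls and 115, 133, 159, 143 and 104 with nicotine. Control 1 was the highest of all 10 libraries, and the other 4 controls lay below every nicotine library (log2 change 0.61, SE 0.27, adjusted p = 0.109). Control 1 also had the highest adipocyte sum, 111000 against at most 64784 elsewhere. Oat measured 165, 224, 231, 299 and 196 in controls and 251, 151, 147, 151 and 117 with nicotine, where 4 nicotine libraries lay below every control (log2 change -0.46, SE 0.21, adjusted p = 0.122).

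Cdo1 averaged 1522 ± 458 and 2142 ± 665 (log2 change 0.49, adjusted p = 0.177), and Csad 505 ± 249 and 521 ± 44.2 (log2 change 0.16). Glud1 averaged 509.6 ± 104 and 504 ± 35.0. Got1 reached 172 in control 2, against 36.3 or less in the other libraries, and in control 2 skeletal muscle transcripts summed to 25231 against at most 1322 elsewhere. The part of muscle in that value was not tested, and the Got1 difference did not pass (log2 change -0.55, adjusted p = 0.536). Fah, Cth (the cystathionine lyase that makes cysteine) and Mat1a (the liver methionine adenosyltransferase) had log2 changes of -0.19, -0.25 and 0.48, none past the threshold.

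Of the 12 tested members 6 were above 0 (48.4% of all genes) and 6 below, with a median of -0.09 against -0.03 over all genes. Of these members 5 (41.7%) were at an unadjusted p below 0.05 against 38.2% of all genes. None had groups that did not overlap, against 16.7% of all genes. A member passed the minimum of 10 only where it was expressed, so these counts do not speak for the 20 listed members below it.

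**Figure D4:**
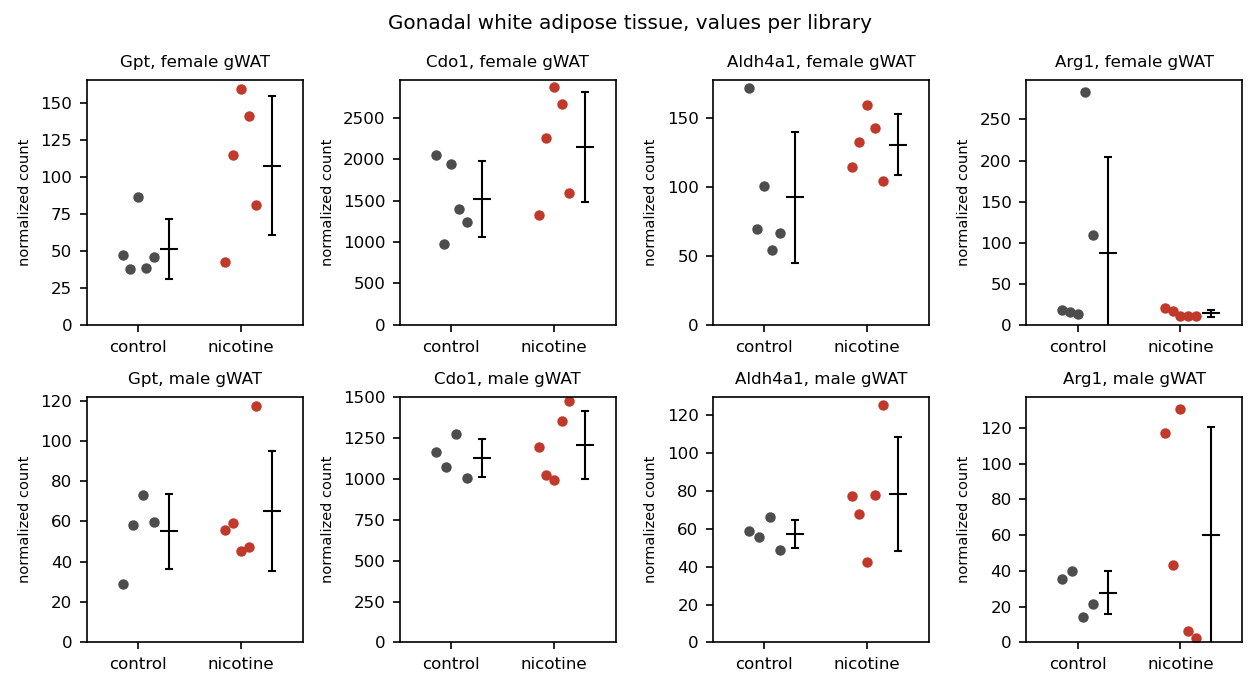
Normalized counts of Gpt, Cdo1, Aldh4a1 and Arg1 in every gWAT library, females in the top row and males in the bottom row, grey for control and red for nicotine, with the mean and 1 SD (n = 5, and 4 for male controls); SD bars that reach below 0 end at the axis. Gpt in female gWAT spans 37.6 to 86.5 in controls and 42.4 to 159 with nicotine, and the high female control values of Arg1 come from 2 libraries.

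Of 37 related amino acid genes tested in female gWAT, 5 rose and 1 fell, or 16.2%, below the 25.2% of all genes that passed in this table. Slc43a1, a carrier of large neutral amino acids, rose from 42.9 ± 17.9 to 97.9 ± 13.7 (log2 change 1.24, adjusted p = 0.00195), and Ahcyl1, a relative of Ahcy, rose 1.99-fold (adjusted p = 0.00776), both with groups that did not overlap. Slc25a15, the mitochondrial ornithine carrier, rose from 26.4 ± 7.61 to 47.2 ± 12.1 (adjusted p = 0.0300), Gstz1, a tyrosine pathway isomerase, rose 1.80-fold (adjusted p = 0.0260), and Chdh, which oxidizes choline toward betaine, rose 1.93-fold (adjusted p = 0.0282). Mpst, a sulfurtransferase of cysteine breakdown, fell from 109.6 ± 19.5 to 45.1 ± 12.4 (log2 change -1.29, adjusted p = 8.67e-04).

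Among 9 regulators tested in female gWAT, 2 rose and 1 fell, or 33.3%, against the same 25.2% of all genes. Ppargc1a, a coactivator of mitochondrial and fasting genes, rose 3.17-fold, from 18.5 ± 9.06 to 58.7 ± 22.3 (adjusted p = 0.00301). Klf15, a glucocorticoid-responsive regulator of amino acid breakdown, rose from 81.9 ± 25.0 to 139.8 ± 27.2 (adjusted p = 0.0155). Prox1, a factor of hepatocytes and lymphatic endothelium, fell from 57.6 ± 17.3 to 11.0 ± 7.35 (log2 change -2.54, adjusted p = 0.00165). Of the zonation markers tested, 1 of 4 periportal genes (25%) and 0 of 4 pericentral genes passed. The periportal marker Ctsc fell from 325 ± 65.0 to 144 ± 25.0 (log2 change -1.17, adjusted p = 6.16e-04), with groups that did not overlap.

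In the gWAT of sons, 0 of 20 tested members passed, and 0% of 11210 genes did. The log2 change was above 0 for 14 of the 20 members, against 51% of all genes. Ass1, Kmo and Ftcd, counted among the 20, reached the minimum mean only through nicotine 1 (log2 changes -0.16, 0.32 and 0.16). The count is therefore not read as a direction of the members. No member had groups that did not overlap, against 0.731% of all genes. Unadjusted p-values below 0.05 were found for 0 members and for 1.62% of all genes (182), and edgeR and DESeq2 also called 0 members. Gldc measured 29.0, 0, 0 and 15.6 in the 4 control columns and 33.4, 8.47, 61.0, 19.9 and 1.33 with nicotine. Its log2 change of 1.74 was 0.99 without control column 2 or 3 and 2.63 without control column 1. Aldh4a1 measured 58.9, 55.5, 66.0 and 48.6 in controls and 77.5, 67.8, 42.6, 77.9 and 125 with nicotine. The nicotine libraries of Aldh4a1 included 4 above every control, with a log2 change of 0.37 (SE 0.27), which was 0.18 without nicotine 5 and 0.56 without nicotine 3. Ahcy measured 31.7, 28.2, 21.0 and 34.7 in controls and 51.6, 30.1, 28.1, 40.8 and 26.7 with nicotine, and the groups overlapped (log2 change 0.26, and 0.12 without nicotine 1).

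Aass, the first enzyme of lysine breakdown, measured 37.1, 18.2, 9.00 and 8.68 in male gWAT controls and 60.3, 2.82, 3.87, 7.25 and 8.00 with nicotine. The nicotine group held both the highest library and the 4 lowest (log2 change -0.75, with -1.42 without nicotine 1 and -0.35 without control column 1). Cth measured 106, 32.8, 14.0 and 78.1 in controls and 147, 37.7, 142, 59.8 and 28.0 with nicotine. Its log2 change of 0.58 (SE 0.65) rested on single libraries, being 0.045 without control column 3 and 0.99 without control column 1.

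Male gWAT nicotine 1 was the highest library for 10 of the 20 members, whereas it was the highest for 12.6% of all genes. Of these 10, Ass1, Kmo and Ftcd reached the minimum mean of 10 only through nicotine 1. Among the 17 members that reached it without that library, nicotine 1 was the highest for 7, against 11.9% of such genes. Cps1 measured 149.6 there and 2.67 to 28.7 elsewhere, Mat1a 313 against 8.00 to 65.2, Gnmt 102 against 2.67 to 25.2, and Tdo2 138 against 9.97 to 45.3. The summed counts of 7 hepatocyte markers were 4904 in nicotine 1, against 605 to 971 in controls and 280.1 to 671 in the other nicotine libraries, and none of the 7 was at 0 in all libraries. Epididymis transcripts were high in control column 1 (21949) and in nicotine 1 (16810), against at most 3462 elsewhere. The part of either in the member values was not tested. Gpt and Aldh4a1 were highest in nicotine 5, at 117 and 125.

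**Figure D5:**
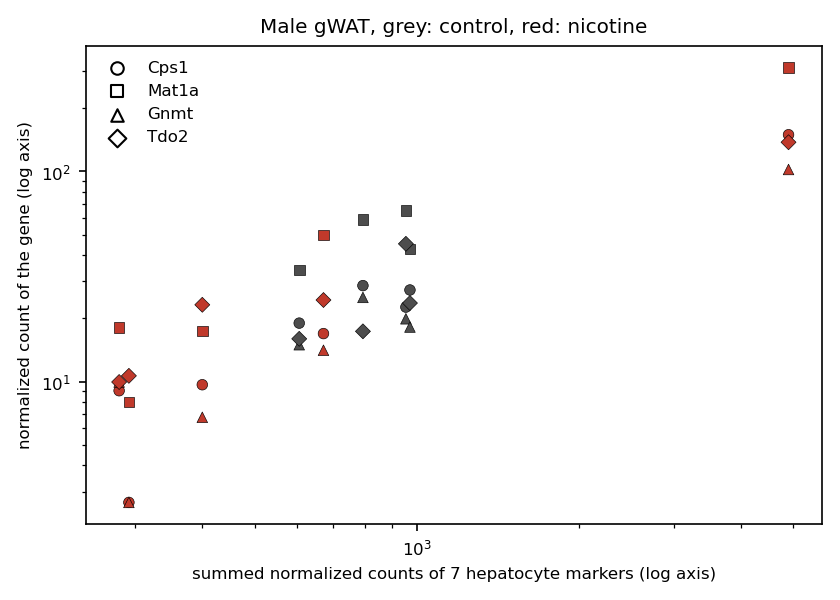
Normalized counts of Cps1, Mat1a, Gnmt and Tdo2 (log axis) against the summed normalized counts of 7 hepatocyte markers (log axis) in the 9 male gWAT libraries, grey for control columns and red for nicotine. Nicotine 1, at a marker sum of 4904, holds the highest value of each of the 4 genes, and the other 8 libraries have sums of 280.1 to 971.

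The interaction of sex and paternal nicotine in gWAT passed for 0 of 12 members, against 8.87% of 10042 genes, and 1 was at an unadjusted p below 0.05, against 26.2%. Ahcy had the smallest p, with log2 changes of -0.80 in females and 0.26 in males and a difference of 1.06 (SE 0.42, adjusted p = 0.107). For Gpt, the changes were 0.99 and 0.22, and the difference was -0.77 (SE 0.50, adjusted p = 0.344). In male gWAT, Gpt measured 29.0, 58.3, 73.0 and 59.9 in the control columns and 55.9, 59.3, 45.5, 47.1 and 117 with nicotine, where nicotine 5 alone lay above every control. For Oat, the changes were -0.46 and -0.08, and the difference was 0.38 (SE 0.29, adjusted p = 0.432). Oat measured 237, 193, 244 and 210.1 in the male control columns and 243, 224, 198, 248 and 145 with nicotine, and the groups overlapped. The rise of Gpt in female gWAT was therefore not shown to differ from its value in male gWAT.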

How the data were processed

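The authors deposited normalized counts, a signal obtained by scaling each library's read counts with its DESeq2 size factor, separately in 4 tables. Per the file headers, the same tables give the authors' log2 fold changes with standard errors and the authors' p-values and adjusted p-values. Per the submitters' processing notes, cutadapt, STAR, DESeq2 and mm10 were used, with no versions. Per the labels' protocols, RNA came from Zymo Direct-zol kits and the 3′-tag libraries from an Illumina kit. The sources used here do not give the counting step, annotation or strand use.

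Computation here used limma 3.58.1, edgeR 4.0.16 and DESeq2 1.42.0 under R 4.3.3, and pandas 2.3.3, NumPy 2.4.6 and matplotlib 3.10.9 under Python 3.11.15. In every table, genes averaging at least 10 were fitted by limma on log2(normalized count + 1), using empirical Bayes moderation with a trend. P-values were adjusted by Benjamini-Hochberg over all genes fitted (threshold 0.05). Male gWAT had 4 control columns where the design assumed 5. The effect of sex was the interaction in a fit to both sexes of a tissue. Dividing by the value of 1 read turned 100% of the deposited values into whole reads within 0.1, with 1543208 to 2239073 reads per library. edgeR and DESeq2 were run on those reads as alternatives. Other alternatives changed the pseudocount (0.5, 5), the minimum (none, 50), the normalization (quantile), added the replicate number as a block, or left out libraries. The 2 alternatives that left out pairs of libraries were chosen after seeing the data. The code was tested on simulated data.

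The members and gene lists were chosen with earlier results of these data known. Values in every library are given for members past the threshold, for the 5 of smallest p in each table and the 3 of smallest p in each interaction. Other members given library by library, such as Sds and Csad in female liver, were chosen after their values were seen. Related genes, regulators and zonation markers are named where they passed.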

Additional observations from a re-analysis of the deposited data

Results flagged for a closer look

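In 40 groups of 4 or 5 libraries, the highest or lowest value of a named member was checked for its distance from the others, and 4 stood out, where chance gives about 1 in 20. In female liver, Cps1 measured 6251 in nicotine 3, with the other nicotine libraries at 3666 to 4295. In female gWAT, Gpt measured 86.5 in control 3, with the other controls at 37.6 to 47.0, and Oat measured 251 in nicotine 1, with the other nicotine libraries at 117 to 151. In male gWAT, Aass measured 60.3 in nicotine 1, with the other nicotine libraries at 2.82 to 8.00.

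No member differed between the sexes past the threshold of the interaction. Over all genes, 1.56% passed the interaction in liver and 8.87% in gWAT. Members, related genes, regulators and zonation markers gave 187 comparisons over the 2 tissues, with a gene tested in both tissues counted in each. Of these comparisons 10 passed, none of them for a member. The differences, male minus female log2 change, were 1.49 for Ddc, -1.07 for Hoga1, -0.89 for Slc38a3, 0.84 for Atf4, -1.81 for Cyp1a2 and -1.51 for Tbx3 in liver. In gWAT they were -0.99 for Ahcyl1, -2.42 for Ppargc1a, 2.28 for Prox1 and 1.21 for Ctsc. Without male liver nicotine 1 and 5, the liver differences were 1.45 for Ddc (adjusted p = 0.0478), -0.79 for Hoga1 (adjusted p = 0.00965), 0.69 for Atf4 (adjusted p = 0.0287), -0.996 for Cyp1a2 (adjusted p = 0.00691) and -1.32 for Tbx3 (adjusted p = 0.0198), while Slc38a3 (-0.60, adjusted p = 0.0599) no longer passed.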

How the results depend on the processing

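Named members were refitted under 520 combinations of gene and setting. The direction never reversed among these, although Oat in male liver, outside that set, changed sign without nicotine 1 and 5. Of the 520, 500 kept their side of the threshold, 10 lost it and 10 gained it. In female liver, 1 member passed, 3 with the replicate block (Tat, Sds and Oat) and 0 without control 4 and nicotine 5, where 181 genes passed in all. Leaving out each library gave 0 to 3 members and 185 to 329 genes, the fewest genes without control 5 (185) and nicotine 4 (195). In male liver, members stayed at 0 in every setting run, and the 5 genes called became 0 at a mean of 50 or more, 3 with edgeR, 186 with DESeq2, 0 with the replicate block, and 0 to 16 on leaving out single libraries, the most without nicotine 2. In female gWAT, 2 members passed with quantile normalization (Gpt and Cdo1), with edgeR and with DESeq2 (Arg1 and Gpt), and leaving out single libraries gave 0 to 3 members and 1954 to 2768 genes. In male gWAT 0 members and 0 genes passed on leaving out each library. For the liver interaction, leaving out single libraries gave 0 to 2 members (Otc and Prodh, without male nicotine 3) and 71 to 280 genes (fewest without female nicotine 4, most without male nicotine 3), DESeq2 called 252 genes, and 86 passed without female control 4 and nicotine 5. For the gWAT interaction, DESeq2 called 1 member (Arg1), and leaving out single libraries gave 0 members and 448 (without control column 4) to 1122 genes. The cause of these shifts was not tested.

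The replicate block gave 341 genes in female liver, 2011 in female gWAT and 95 for the liver interaction. Libraries sharing a number did not deviate together: their correlations ran from -0.086 to 0.070 in female liver, from -0.130 to 0.076 in male liver and from -0.277 to 0.173 in female gWAT. No library of female liver or female gWAT, and 1 of 5 pairs in male liver, correlated best with its own number. No paired analysis was possible in male gWAT because its 4 numbered control columns could not be matched to 5 labelled controls, so that a column's number may not be its sample's. Members under 10 normalized counts in gWAT were too shallow to test.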
